A study of Bos taurus with 16 samples.

Results

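The genes described here are 40 genes of the WNT pathway and of uterine patterning, chosen by name: ligands, receptors, secreted inhibitors, intracellular components and transcription factors. The list was set with NDP in view as a gene of lower endometrial level in cows with subclinical endometritis (SCE), so the difference between SCE and healthy endometrium was used in choosing it and is given below as a description, with no p of single genes. Counts of genes past a threshold in that contrast are printed beside the share of all genes, and nothing is read from them. A gene was measured by every non-control probe of the array that carried its name. In this way 35 of the 40 genes were measured, by 80 of the 46615 probes, which together stood for 26554 named genes or transcripts. WNT4, FZD2, FZD5, FZD6 and HOXA11 had no probe of their own name and are taken up separately.

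RNA came from 8 Holstein cows at 45 to 55 days post-partum. The 4 SCE cows (718, 833, 836 and 846) had uterine inflammation without clinical signs, and the 4 healthy cows (841, 850, 877 and 883) had none. Each cow gave circulating white blood cells (WBC), collected as whole blood in PAXgene tubes, and 1 transcervical endometrial biopsy, each hybridised to 1 single-colour array. Cycle stage is not known here for single cows, and more SCE than healthy cows were in the luteal phase. The 8 WBC arrays shared 1 slide and the 8 biopsies a second one, so a difference of tissue cannot be told apart from one of slide. A biopsy holds epithelium, stroma, vessels and leukocytes together, so fewer cells of a type and less RNA per cell cannot be told apart either.

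WNT proteins are secreted glycoproteins that bind Frizzled receptors (FZD) together with the co-receptors LRP5 or LRP6. In the canonical branch this stops the destruction of beta-catenin (CTNNB1), which then activates TCF/LEF transcription factors, whereas the secreted inhibitors hold back either the ligands (SFRP family, FRZB, WIF1) or the co-receptors (DKK1). NDP encodes norrin, a ligand that is not a WNT but activates the same branch through FZD4 and LRP5. In the uterus, WNT signals between stroma and epithelium take part in the formation of the female tract and its glands, and HOXA10, HOXA11 and MSX1 are transcription factors of the developing and adult uterus.

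NDP was read by 3 probes. The files place them on the plus strand of chromosome X, the first at chrX:62819262-62829035 and the second at chrX:62819269-62829042, spans of 9774 bases for probes of 60 bases, so that both cross an exon junction. Their sequences are shown because the NDP result rests on them and because they are not independent: they share 53 bases, set in capitals.
NDP junction probe 1: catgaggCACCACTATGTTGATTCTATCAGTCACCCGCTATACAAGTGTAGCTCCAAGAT
NDP junction probe 2: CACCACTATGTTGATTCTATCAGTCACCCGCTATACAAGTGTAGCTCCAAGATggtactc
A downstream probe begins at base 1832 of the same transcript, beyond both of these. FZD4, the receptor of norrin, was read by 4 probes on chromosome 29, of which a pair at chr29:8906045-8906104 and chr29:8906076-8906135 covers 29 common positions, again in capitals, and differs at 2 of these positions.
FZD4 probe from base 899: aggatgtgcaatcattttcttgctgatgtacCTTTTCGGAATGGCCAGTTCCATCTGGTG
FZD4 probe from base 930: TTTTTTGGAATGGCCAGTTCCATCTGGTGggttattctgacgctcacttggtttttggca
The upper of these FZD4 probes was well above background on 1 of 4 healthy and 2 of 4 SCE endometrium arrays, and the lower on all 4 of each. Coordinates are those of the scanner files, whose header names the build HGSC Btau_3.1, while the labels name UMD3.1 for the transcripts used in the design.

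Levels are log2 intensities after quantile normalisation over the 16 arrays, with the probes of a gene averaged, and a level is compared only with the same gene on other arrays. A gene counted as well above background on an array when the scanner software marked at least 1 of its probes so. By this mark 33 of the 35 genes were read on all 4 arrays of at least 1 group, each time an endometrium group. Between 64.7% and 79.8% of spots were well above background per array. The endometrium array of SCE cow 833 stood apart, with a median signal above local background of 79.0 against 248 to 316 on the other 7 endometrium arrays, and the differences named below that moved most without it are given both ways. The labelled tissues carried their markers. After adjustment 6 of 6 stroma, 4 of 4 smooth muscle, 3 of 4 endothelium and 5 of 6 epithelium markers were higher in the endometrium, with the last epithelium marker lower. All 6 leukocyte, 5 neutrophil, 4 erythroid and 3 measured platelet markers were higher in WBC. Of the 3 measured markers of ciliated epithelium 0 passed the test.

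**Figure D1:**
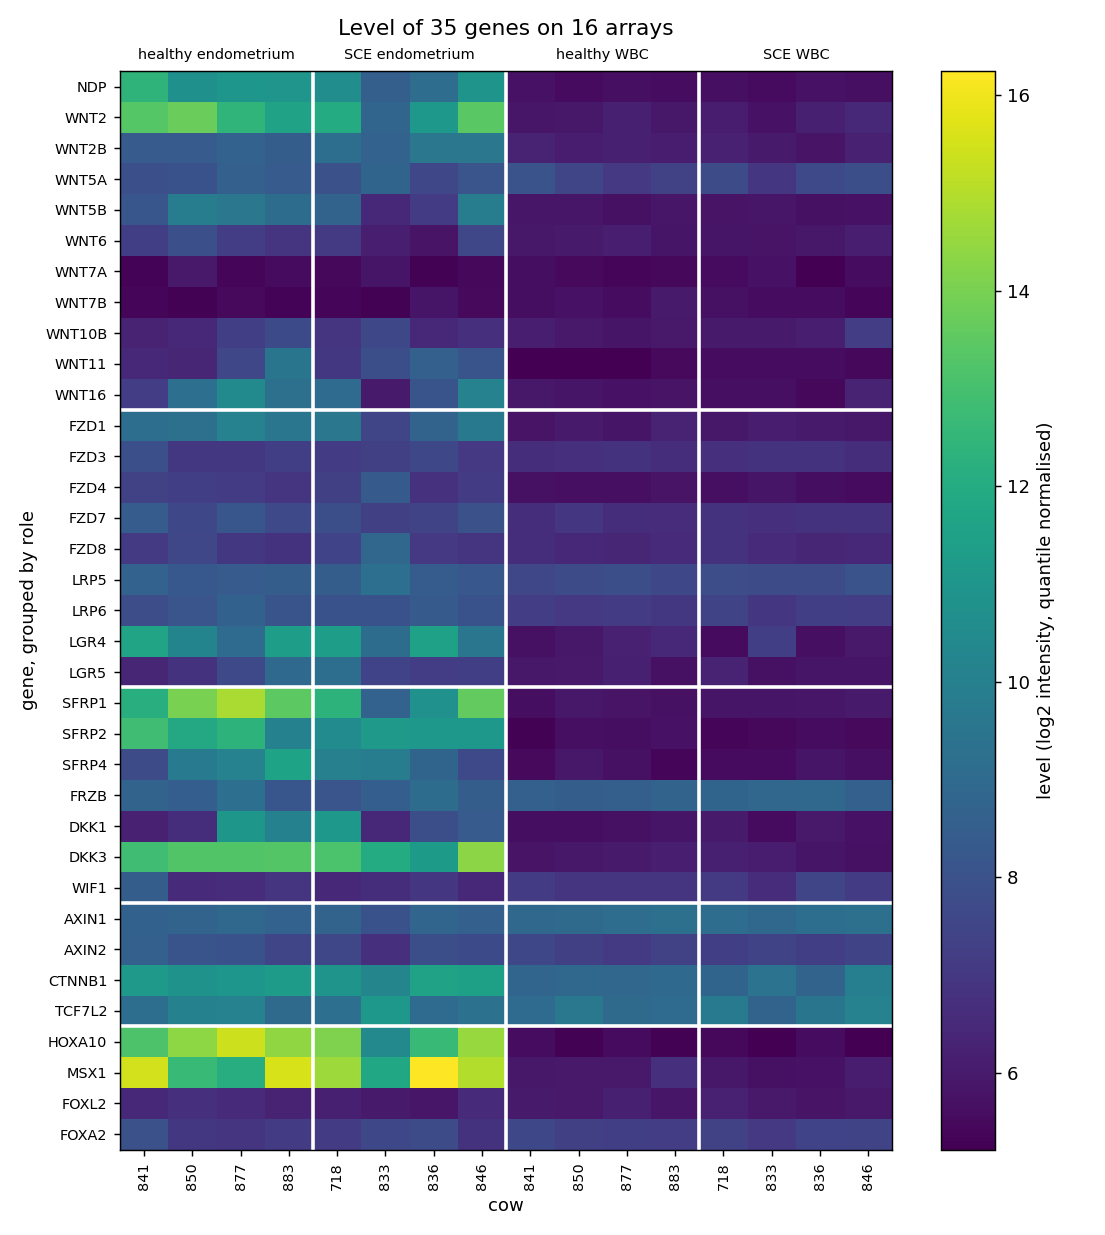
Level of the 35 measured genes (rows, grouped by role) on each of the 16 arrays (columns, by cow and group), as log2 quantile-normalised intensity on a colour scale. HOXA10, MSX1, DKK3, SFRP1, SFRP2 and WNT2 were bright in the endometrium and at 6.76 or below in WBC, and the column of SCE cow 833 was darker than its neighbours for SFRP1, WNT2 and HOXA10.

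Endometrium was compared with WBC over all 16 arrays in 1 model of 4 groups, with limma's TREAT test against a 1.2-fold threshold and Benjamini-Hochberg adjustment over 26478 genes. Of the 35 genes, 24 were higher in the endometrium at an adjusted p of 0.05 and 0 were lower, where 22.3% of all genes tested were higher and 30.5% lower. With no threshold on the fold, 1 of the 35 (AXIN1) was lower. The median difference of the 35 genes was 1.60 on the log2 scale, against -0.15 for all genes. In 22 of the 35 the 8 endometrium arrays did not overlap the 8 WBC arrays, as in 37.5% of all genes. Of the 24 genes, 21 passed under all 18 alternative settings, the exceptions being FZD3, FZD8 and LRP5. The balance between the tissues depended on scaling. Normalising each tissue separately moved the median of all genes to 0.33, raised the share of higher genes among all calls from 42.3% to 80.1%, and gave 31 higher members.

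**Figure D2:**
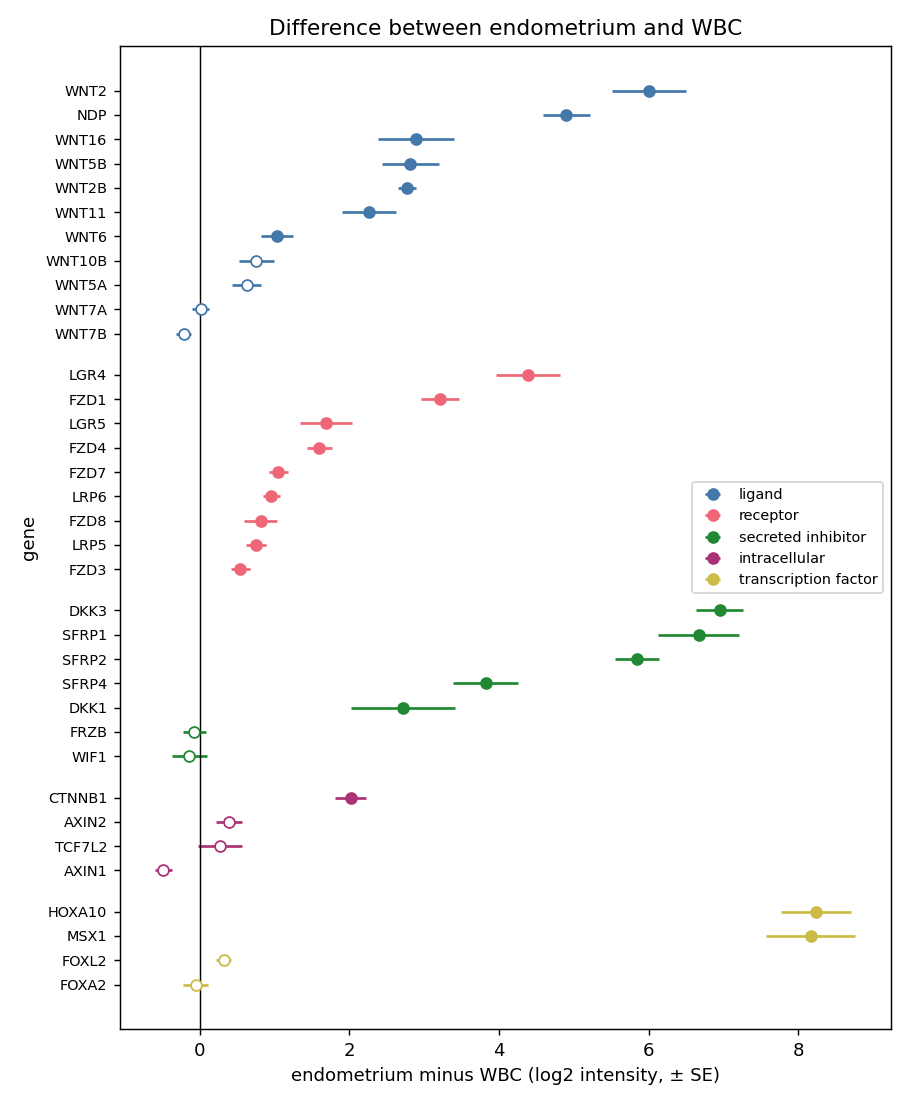
Difference between endometrium and WBC (horizontal axis, log2 intensity, positive where endometrium was higher) for each gene by role, with the standard error of the model as a bar (4 groups of 4 arrays). Filled points passed the adjusted TREAT test. HOXA10 and MSX1 lay at 8.24 and 8.17, with WBC levels near background, and all 9 receptors lay above 0.

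Of the 11 ligands measured, 7 were higher in the endometrium. Genes near background in WBC have a floor there, so their differences are not ranked. WNT2, a ligand made by mesenchyme in several organs, had 12.77 ± 0.98 (SD, n = 4) in healthy and 11.34 ± 1.93 (SD, n = 4) in SCE endometrium. In WBC its levels lay between 5.78 and 6.45, with 0 of 8 arrays well above background. The difference was 6.01 (standard error 0.49, adjusted p = 4.38e-08, limma's TREAT), so that WNT2 was at least 64.4-fold higher in the endometrium. NDP was at 5.54 to 5.76 in WBC, again with 0 of 8 arrays well above background, and was at least 29.9-fold higher in the endometrium (log2 difference 4.90, standard error 0.31, adjusted p = 2.31e-09 in limma's TREAT test). WNT16, WNT5B, WNT2B and WNT11 differed by 2.89, 2.82, 2.77 and 2.26, and WNT6 by 1.03. WNT5B and WNT11 belong to the ligands known for signalling without beta-catenin.

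WNT5A, another such ligand, was well above background on all 16 arrays. Its difference of 0.63 (standard error 0.19) did not pass (adjusted p = 0.0755, limma's TREAT). WNT10B, at 0.75, did not pass either (adjusted p = 0.0528, limma's TREAT). WNT7A and WNT7B, ligands of the uterine epithelium during its development, were well above background on 0 of 16 arrays, and no difference is read from them.

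Every one of the 9 receptors measured was higher in the endometrium. LGR4, an R-spondin receptor that strengthens WNT signals, differed by 4.38 (standard error 0.43, adjusted p = 4.05e-07, limma's TREAT). Its endometrial levels were 11.64, 10.18, 9.07 and 11.38 among healthy cows 841, 850, 877 and 883, and 11.40, 9.14, 11.52 and 9.54 among SCE cows 718, 833, 836 and 846, a spread of more than 2 log2 units in both groups. In WBC the same gene was well above background on 2 of 8 arrays, so that its WBC level is mostly a background reading. FZD1 differed by 3.21 (standard error 0.25) and LGR5, a receptor related to LGR4 and a marker of epithelial stem cells, by 1.69 (standard error 0.34).

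FZD4 differed by 1.60 (standard error 0.17, adjusted p = 2.64e-06, limma's TREAT), at least 3.02-fold. In the endometrium it was 7.36, 7.27, 7.17 and 6.86 among healthy cows 841, 850, 877 and 883, and 7.32, 8.35, 6.81 and 7.19 among SCE cows 718, 833, 836 and 846. SCE cow 833 was thus the highest of the 8 and the other 7 lay within 6.81 to 7.36. In WBC FZD4 was 5.73, 5.69, 5.67 and 5.80 in the healthy cows and 5.67, 5.84, 5.61 and 5.54 in the SCE cows, in the same order of cows, with no array well above background. LRP5, the co-receptor, was present in both tissues. Its endometrial levels were 8.69, 8.24, 8.36 and 8.47 in the healthy cows and 8.47, 9.25, 8.43 and 8.21 in the SCE cows, again with cow 833 highest. Its WBC levels were 7.58, 7.78, 7.87 and 7.60 in the healthy and 7.81, 7.73, 7.76 and 8.02 in the SCE cows, all below every endometrial value. The LRP5 probes averaged here did not all have the same direction, at 1.31, 1.53, 0.61 and -0.47 for endometrium minus WBC. A further LRP5 probe that was lower in the endometrium, at -0.46, had no value on 2 arrays and was left out of these levels. The difference without that probe, 0.75 (standard error 0.13, adjusted p = 0.00265, limma's TREAT), did not pass with the authors' normalised values, at 0.52. LRP6, FZD7, FZD8 and FZD3 differed by 0.96, 1.05, 0.81 and 0.54.

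Among the 7 secreted inhibitors, 5 were higher in the endometrium. DKK3, a secreted relative of DKK1, had 13.17 ± 0.21 (SD, n = 4) in healthy endometrium and 12.66 ± 1.36 (SD, n = 4) in SCE endometrium against 5.73 to 6.18 in WBC, where 1 of 8 arrays was well above background, a difference of 6.95 (standard error 0.32, adjusted p = 4.19e-11, limma's TREAT). SFRP1 differed by 6.67, SFRP2 by 5.84, SFRP4 by 3.82 and DKK1 by 2.71. FRZB and WIF1 were well above background on all 16 arrays, and their differences of -0.07 and -0.14 did not pass. For FRZB the mean hid opposite probes, of which one was higher in the endometrium by 1.01 and the other lower, at -1.15.

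CTNNB1 was the intracellular component that differed, by 2.02 (standard error 0.20, adjusted p = 1.11e-06, limma's TREAT), or 4.04-fold. AXIN1 and AXIN2, scaffolds of the complex that destroys beta-catenin, differed by -0.49 and 0.39, and TCF7L2, a partner of beta-catenin on DNA, by 0.27. None of these 3 passed. One of the 4 TCF7L2 probes matches TCF4, a different gene, by its RefSeq accession. Of the 4 transcription factors measured, HOXA10 and MSX1 passed, at 8.24 (standard error 0.47, adjusted p = 5.82e-10, limma's TREAT) and 8.17 (standard error 0.60, adjusted p = 1.04e-08). HOXA10, well above background on 0 of 8 WBC arrays, was at least 295-fold higher, and MSX1 was read on 1 of 8. FOXL2 and FOXA2 differed by 0.32 and -0.06. FOXA2 is a marker of uterine glands in the mouse, yet its levels overlapped fully, at 6.83 to 7.95 in the endometrium and 7.04 to 7.59 in WBC.

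Averages over probes covered unlike readings elsewhere too. Of the 24 genes with more than 1 probe, 9 had probes that differed in the sign of the tissue difference: WNT6, WNT10B, FZD3, FZD7, LRP5, FRZB, TCF7L2, FOXL2 and FOXA2. For FZD7 the probes gave 2.03, 1.63 and -0.51. The probes of NDP gave 4.63, 5.40 and 4.68 and those of SFRP1 7.63, 6.42 and 5.95.

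The genes without a probe of their own name could be followed through probes whose description in the files names them, found after the values were seen and outside the averages above. They are described without a test. The HOXA11 probe was at 5.42 to 6.01 in WBC, with 0 of 8 arrays well above background. In the endometrium it was 13.77, 15.26, 16.15 and 15.25 among healthy cows 841, 850, 877 and 883, and 14.90, 10.81, 13.68 and 15.56 among SCE cows 718, 833, 836 and 846, the same order of cows at the low end as for HOXA10, with 833 lowest. The mean difference between SCE and healthy endometrium was -1.37, and -0.39 without cow 833. The WNT4 probe had a log2 difference between endometrium and WBC of -1.83. It lay between 8.21 and 8.67 in 7 endometria but at 12.35 in that of SCE cow 833. Of the 2 FZD6 probes, one was 2.36 higher in the endometrium and the other differed by -0.03 and was well above background on 1 of 16 arrays. The FZD2 probe varied between cows in WBC, with healthy cow 850 at 11.03 and SCE cow 846 at 11.53 against 6.93 to 7.56 in the other 6. The FZD5 probe stayed between 5.88 and 7.50.

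In the endometrium NDP was 12.37, 10.77, 11.01 and 10.96 among healthy cows 841, 850, 877 and 883. In the SCE cows 718, 833, 836 and 846 it was 10.64, 8.54, 9.17 and 10.93. The lower levels thus came from cows 833 and 836, while cow 718 lay just below the lowest healthy cow and cow 846 fell within the healthy range, so the groups overlapped. Healthy cow 841 stood above the other healthy cows. The group means were 11.28 ± 0.74 (SD, n = 4) and 9.82 ± 1.15 (SD, n = 4), a difference of -1.46 (standard error 0.59), or 2.74-fold higher in healthy cows. Leaving out each cow in turn gave differences from -1.83 to -1.03, the smallest without cow 833. All 3 probes gave the same direction, with -1.67 and -1.64 at the exon junction and -1.06 downstream. In WBC, where NDP was well above background on 0 of 8 arrays, SCE and healthy cows differed by 0.01.

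**Figure D3:**
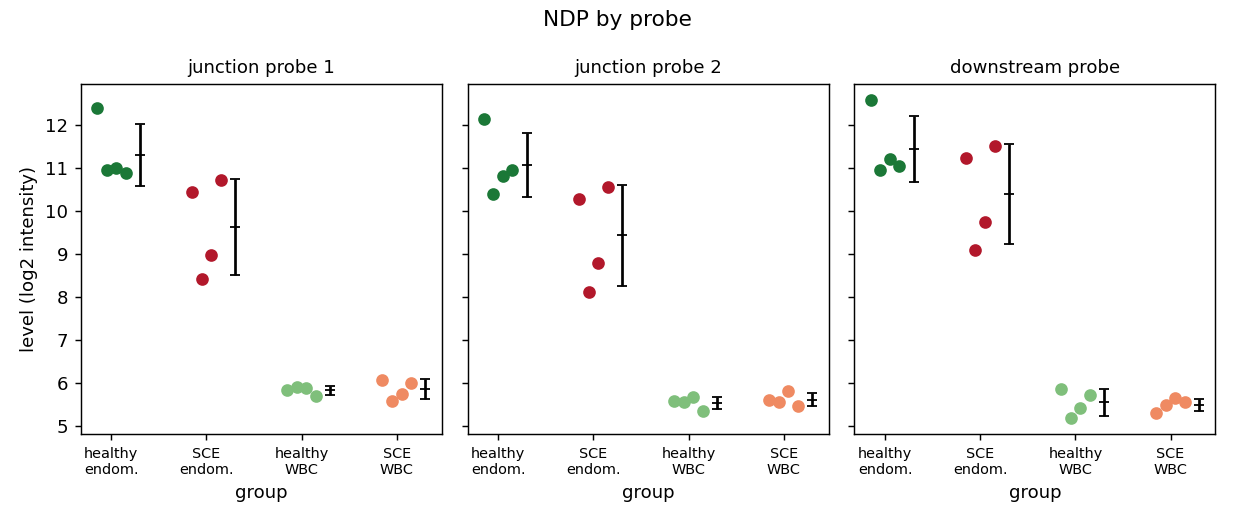
Level of NDP (vertical axis, log2 intensity) by probe in the 4 groups, each point 1 cow, with the mean and SD of 4 cows beside it. On each probe 2 of the SCE endometria lay below 10 and the other 2 near the healthy cows, and every WBC value lay below every endometrial value.

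Over all 35 genes, 24 were lower and 11 higher in SCE than in healthy endometrium, with a median difference of -0.17 against 0.00 for all genes, of which 50.6% were higher. Without cow 833 again 24 were lower, with a median of -0.16. At an adjusted p of 0.05, limma's TREAT called 0 of the 35 genes and 0% of the 26491 genes tested, and without adjustment 2 of the 35 (NDP and WNT2B) where 0.381% of all genes passed. Since NDP led to the choice of these genes, its place in the count restates that choice. NDP was past the unadjusted threshold in 9 of 19 alternatives and not in the other 10, whereas WNT2B was past it in all 19. Nothing is read from these tallies, as the same contrast was used in choosing the genes. For 19 of the 35 genes the direction stayed the same whichever cow was left out, 15 of them lower and 4 higher in SCE cows. No share of all genes is at hand for this count, so nothing is read from it.

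The secreted inhibitors all had lower means in SCE endometrium, 7 of 7, with a median of -0.52. Of all genes, 50.6% were higher. Without cow 833 the lower mean held for 6 of 7, DKK1 being the exception, and the median was -0.49. The fewest, 5 of 7, were lower without healthy cow 877. The FRZB probes differed in sign, at -0.26 and 0.04. The 7 measured secreted and surface WNT inhibitors outside the list were split, 4 higher and 3 lower, with a median of 0.02. Nothing is read from the count of 7, as the same contrast was used in choosing the genes. SFRP1, which binds WNT ligands outside the cell, had the largest difference of the 35 genes. It was 12.16, 14.04, 14.86 and 13.46 among healthy cows 841, 850, 877 and 883, and 12.35, 8.68, 10.81 and 13.60 among SCE cows 718, 833, 836 and 846. Cows 833 and 836 lay below all healthy cows and the other SCE cows within their range. The difference was -2.27 (standard error 1.03), and -1.38 without cow 833. SFRP2 differed by -0.82, and by -1.39 to -0.45 when single cows were left out. SFRP4 differed by -0.74, and by -1.42 to -0.14 in the same way. DKK3 was low in the same 2 cows, at 11.98 and 11.21 against 12.87 to 13.31 in the healthy cows, but highest of all in SCE cow 846, at 14.33. Its difference was -0.52, and -0.29 without cow 833. DKK1 ranged from 6.23 to 11.07 among healthy cows and from 6.46 to 11.10 among SCE cows, so the groups overlapped over almost their whole range.

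Among the ligands, WNT2 and WNT5B had the pattern of SFRP1. WNT2 was 13.35, 13.74, 12.43 and 11.56 in the healthy cows and 12.00, 8.82, 11.12 and 13.43 in the SCE cows, a difference of -1.42 (standard error 0.93) that became -0.58 without cow 833. WNT5B differed by -1.11 (standard error 0.73) and by -0.59 without that cow. WNT2B had the opposite direction. It was 8.36, 8.37, 8.67 and 8.47 among healthy cows 841, 850, 877 and 883, and 9.19, 8.70, 9.60 and 9.59 among SCE cows 718, 833, 836 and 846. Of the 35 genes it alone had no overlap of the groups in the endometrium, as in 1.5% of all genes. In WBC its groups overlapped. Cow 833, at 8.70, lay just above the highest healthy cow, at 8.67. The difference was 0.80 (standard error 0.21), and 0.99 without cow 833. By probe it was 1.16 and 0.44, and on the second probe cow 833, at 6.77, lay below the healthy cows.

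Of the receptors FZD1 differed most, by -0.65 (standard error 0.46), and by -0.20 without cow 833, in which it was lowest at 7.53. The receptor of norrin, FZD4, differed by 0.25 (standard error 0.31) and its co-receptor LRP5 by 0.15 (standard error 0.23). Both values rested on cow 833, without which they were -0.06 and -0.07. LGR5 ranged from 6.42 to 8.995 in healthy cows and from 7.24 to 9.20 in SCE cows. Of the intracellular components AXIN2, itself a target gene of beta-catenin, differed most. It was 8.58, 8.08, 8.00 and 7.53 in the healthy cows and 7.58, 6.71, 7.86 and 7.70 in the SCE cows, a difference of -0.58 (standard error 0.30), and -0.33 without cow 833. CTNNB1 differed by -0.02 (standard error 0.29).

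HOXA10 was 13.15, 14.36, 15.38 and 14.41 among healthy cows 841, 850, 877 and 883. In SCE cows 718, 833, 836 and 846 it was 14.12, 10.39, 12.69 and 14.56. Cows 833 and 836 were again the lowest of the 8. The difference was -1.39 (standard error 0.89), and -0.54 without cow 833. MSX1 spread widely within both groups, at 15.49, 12.65, 12.09 and 15.56 in the healthy and 14.64, 11.82, 16.24 and 14.97 in the SCE cows, and the ranges overlapped. Its difference was 0.47 (standard error 1.12), and 1.34 without cow 833.

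**Figure D4:**
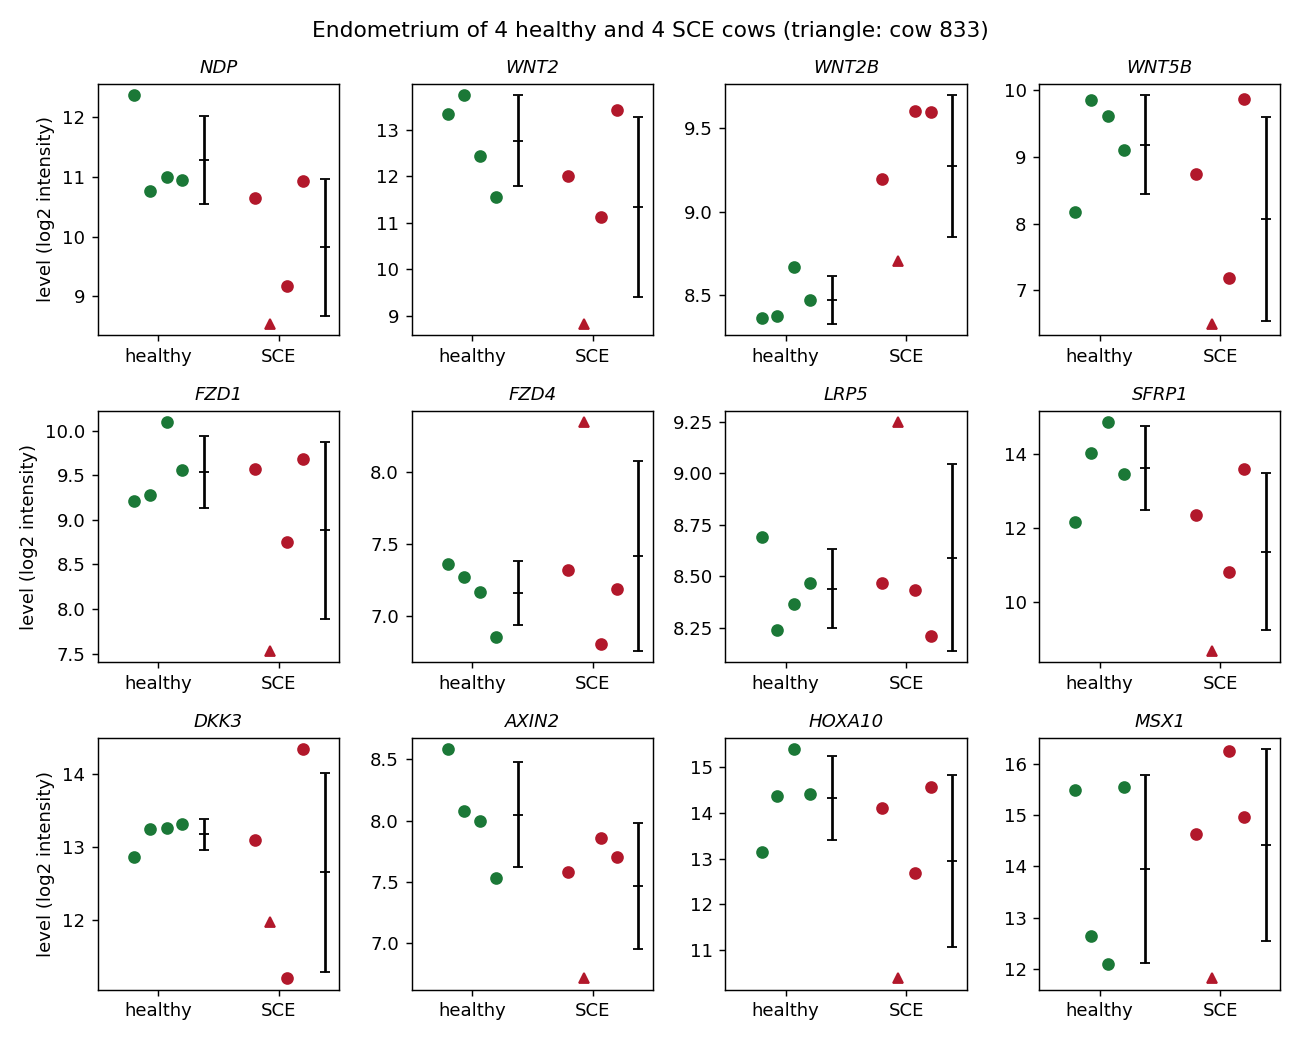
Endometrial level (vertical axes, log2 intensity, a separate scale for each gene) of 12 genes in 4 healthy and 4 SCE cows, with the mean and SD of each group as a bar and SCE cow 833 as a triangle. WNT2B alone separated the groups, and cow 833 was lowest for NDP, WNT2, WNT5B, FZD1, SFRP1, AXIN2, HOXA10 and MSX1 but highest for FZD4 and LRP5.

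The endometrium of SCE cow 833 gave the lowest of the 8 values for 12 of the 35 genes and the highest for 5, against 26.5% and 28.1% of all genes. Of the 24 genes with lower means in SCE endometrium, 18 had a smaller or reversed difference without it. Markers of other cell types were also unusual on this array. The summed level of the 4 endothelium markers (log2 of their summed intensities) was 13.49 in cow 833 against 10.36 to 11.31 in healthy cows and 10.36 to 10.83 in the other SCE cows, and all 4 (PECAM1, CDH5, VWF and TIE1) were highest in it. The summed level of the 6 stroma markers was 15.10 in cow 833, 16.40 in cow 836 and 16.71 in cow 718 against 16.74 to 17.49 in healthy cows, with SCE cow 846 at 17.79. The summed level of the 5 neutrophil markers was 10.92 in cow 833 against 9.13 to 9.67 in the healthy cows and 9.21 to 9.74 in the other SCE cows. Among them S100A8 and S100A9 were highest in cow 833, at 10.45 and 7.55. MPO was lowest in it, at 7.51, and CSF3R and CXCR2 were highest in cow 718. The summed level of the 4 erythroid markers was 16.54 in cow 833 against 14.41 to 15.18 in the other 7 cows, nearly all of it HBA, at 16.53. AHSP was also highest in cow 833, but HBB and ALAS2 were not. The summed level of the 6 leukocyte markers was 13.05 in cow 833 against 12.54 to 12.89 in the others. Of these markers CD79A and CD14 were highest in cow 833, at 12.64 and 9.62. PTPRC, CD3E and CORO1A were lowest in it, at 8.46, 7.43 and 7.09, and LCP1 was highest in cow 718. The part of these markers in the results above was not tested. The stroma sum was lowest in cows 833 and 836, the 2 cows low for NDP, SFRP1, WNT2, WNT5B, DKK3 and HOXA10. Among the single stroma markers only DCN was lowest in these 2 cows, at 13.85 and 14.68 against 14.89 or more in the others. COL3A1 and COL1A1 were lowest in cows 833 and 718, and PDGFRA in 833 and 841. PDGFRB was lowest in cows 836 and 841, and LUM in 850 and 833. The cows lowest for MSX1 were 850, 877 and 833. EPCAM, an epithelium marker, was 12.39, 10.29 and 10.12 in these and 11.78 to 14.47 in the other 5. KRT18 was lowest in these cows too, at 10.09, 8.69 and 9.71. The other epithelium markers were not. CDH1 was lowest in cows 877, 833 and 846, and KRT8 in 877, 850 and 841. CLDN4 was lowest in cows 877, 846 and 833, and KRT19 in 877, 850 and 846. KRT19 was highest of all in cow 833, at 13.91. The summed level of the 6 epithelium markers was 13.46, 12.34 and 14.18 in these 3 cows, in the order 850, 877 and 833, and 13.38 to 14.99 in the others.

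The hormone receptors, which follow the estrous cycle, were also uneven. PGR, the progesterone receptor, lay between 9.54 and 11.32 in healthy cows and was 9.93, 7.98, 9.57 and 10.40 among SCE cows 718, 833, 836 and 846, a difference of -0.86 (standard error 0.59) that became -0.37 without cow 833. ESR1 and OXTR differed by -0.26 and -0.51, or -0.20 and -0.56 without that cow, and OXTR ranged from 6.43 to 10.63 over the 8 endometria. The part of the cycle in the differences was not tested.

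**Figure D5:**
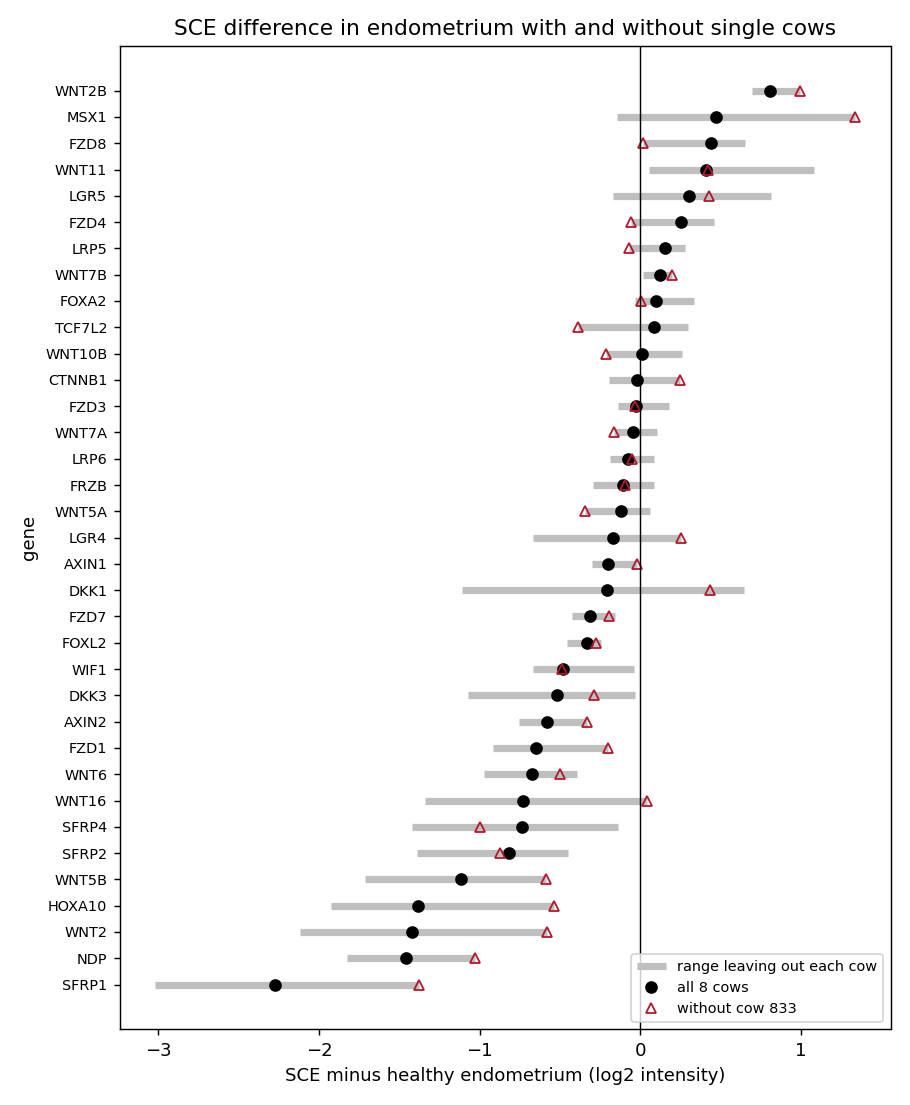
Difference between SCE and healthy endometrium (horizontal axis, log2 intensity) of each of the 35 genes with all 8 cows (black points), without cow 833 (triangles), and the range when each cow was left out in turn (grey bars). SFRP1, NDP, WNT2, HOXA10 and WNT5B had the lowest values, and all 5 moved towards 0 without cow 833.

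In WBC, SCE and healthy cows were compared over the 8 WBC arrays in the same way. None of the 35 genes passed limma's TREAT test adjusted over 26525 genes, as 0% of all genes, and 0 passed unadjusted, where 0.0905% of all genes did. With a TREAT threshold of 0, 1 gene (WNT11, at a difference of 0.26) passed unadjusted, and it was among those not read on any WBC array. The groups did not overlap for 0 of the 35 genes, and for 1.33% of all genes. By the scanner mark, 13 of the 35 were read on all 4 arrays of a WBC group and 13 on 0 of the 8 WBC arrays. The differences of the 35 genes lay between -0.29 and 0.36, with 22 above 0, as were 47.5% of all genes, and a median of 0.03.

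CTNNB1 had the largest difference among the intracellular components in WBC, 0.33 (standard error 0.25, adjusted p = 1, limma's TREAT). It was 8.80, 8.90, 8.84 and 8.996 among healthy cows 841, 850, 877 and 883, and 8.77, 9.40, 8.72 and 9.96 among SCE cows 718, 833, 836 and 846. The SCE cows lay on both sides of the healthy ones, and on the brightest probe the difference was -0.10. The high level of cow 846 came from a single probe, at 13.76 against 8.41 to 9.73 in WBC of the other cows. On the brightest probe and a further one, cow 846 was the lowest in WBC, at 10.74 and 7.48. On the remaining probe it lay within the range of the others, at 7.86. For the ligands WNT5A differed by 0.07 (standard error 0.25), for the receptors LRP6 by 0.12 (0.13), for the inhibitors FRZB by 0.20 (0.12) and for the transcription factors FOXA2 by 0.01 (0.14), each with an adjusted p of 1 in limma's TREAT test.

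The difference of the SCE effect between the tissues, endometrium minus WBC, was estimated in the model of 16 arrays, which shares the endometrial difference used in choosing the genes. Limma's moderated test called 0 of the 35 genes after adjustment and 3 without it (NDP, WNT2B and SFRP1), where 0% and 1.76% of all genes passed, and nothing is read from these counts either. The values were -1.47 for NDP, 0.89 for WNT2B and -2.40 for SFRP1. As the WBC differences of these genes were 0.01, -0.09 and 0.13, the values are close to those of the endometrium alone.

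A further 94 genes of the pathway and of uterine patterning outside the list served as its surroundings, and 82 of them had a probe. Between the tissues 31 were higher in the endometrium and 23 lower at an adjusted p of 0.05 in limma's TREAT test, where 22.3% and 30.5% of all genes were, with a median of 0.11. Of the 10 TCF/LEF factors and cofactors 6 were lower and 1 higher. TCF7 and LEF1, T cell factors of this family, differed by -2.83 (standard error 0.14, adjusted p = 1.85e-10, limma's TREAT) and -2.38 (standard error 0.12). The 14 other patterning and gland genes had 8 higher and 3 lower, with NR2F2, a stromal nuclear receptor, at 6.06, HOXA9 at 5.01 and EMX2 at 4.80. Of 5 beta-catenin target genes, CCND1 was among the 3 higher, at 3.16, and CD44 among the 2 lower, at -3.28. The 8 ligands outside the list had 0 higher and 1 lower, WNT9B. TSPAN12, which joins the norrin receptor complex, was 1.95 higher (standard error 0.19).

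Between SCE and healthy cows 0 of these 82 genes passed limma's TREAT test in either tissue, adjusted or unadjusted. Their median differences were -0.04 in the endometrium and -0.02 in WBC. Differences in the endometrium lay between -0.95 for APCDD1, a surface inhibitor of WNT ligands, and 0.71 for SOSTDC1, a secreted inhibitor. SOSTDC1 was well above background on 1 healthy and 2 SCE arrays, and its difference ranged from 0.13 to 1.38 when single cows were left out. APCDD1, at -0.56 without cow 833, was 10.83, 10.86, 11.60 and 11.14 in the healthy cows and 10.54, 8.99, 9.79 and 11.31 in the SCE cows, with cows 833 and 836 lowest once more.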

How the data were processed

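RNA of WBC and endometrium from 4 SCE and 4 healthy cows was read on 16 arrays. The authors extracted spot intensity values with Agilent Feature Extraction 10.10.1.1. They deposited each array's intensities without normalization, with a table of quantile-normalized intensities that differed from the values computed here by a median of 0.0415%. From the scanner files, median signals were taken without background correction, control and outlier spots were left out (190 to 465 of 52689 spots per array), and quantile normalization was applied to the log2 values of the 16 arrays together. Probes measured on every array of a fit were averaged per gene name. For DKK1 this left 1 of 2 probes over the 16 arrays, the source of its levels, and both in the endometrium fit. For LRP5 a probe without values on 2 arrays was left out, in the fits of each tissue too. Tests used limma 3.58.1 in R 4.3.3 (TREAT at 1.2-fold, or the moderated test for the difference between tissues) with Benjamini-Hochberg adjustment over all genes at 0.05, and were checked on simulated data. Plots used matplotlib 3.10.9 and Python 3.11.15. For "at least" folds a dim array counted at its own value or at its lowest reading that the scanner marked well above background, whichever was higher. With 4 arrays per group, their number limits the precision. The 40 members, the 94 pathway genes and the marker lists (6 epithelium, 4 ciliated epithelium, 6 stroma, 4 smooth muscle, 4 endothelium, 6 leukocyte, 5 neutrophil, 4 erythroid and 4 platelet genes) were chosen with earlier results of these data known.

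Named in the text were NDP, FZD4 and LRP5, the member of each role with the largest difference in each comparison among those marked well above background throughout a group of 4 arrays, members without overlap of SCE and healthy cows, hormone receptors, and pathway genes without overlap that passed unadjusted, of which there were 0. Other genes named were chosen after their values were seen. The labels give both arrays of a cow the same animal number, so they are paired. The correlation over 26292 genes of a cow's deviations from its group means between the tissues was 0.074, 0.101, 0.083 and 0.094 in cows 841, 850, 877 and 883 and -0.045, -0.222, 0.069 and -0.021 in cows 718, 833, 836 and 846. Alternatives were other scalings and background corrections, the authors' table, the brightest probe, RefSeq names, a filter on dim probes, another TREAT threshold, another prior, the slide row or the cow as a block, 1 fit of all arrays, and leaving out each cow.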

Additional observations from a re-analysis of the deposited data

Results flagged for a closer look

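Of 86 groups of 4 cows with a gene well above background on every array, 9 held a cow far from the other 3. Chance alone gives about 1 in 20 for independent groups. These groups share arrays and cows, so the count cannot show an excess over chance. In the endometrium, NDP was 12.37 in healthy cow 841 against 10.77 to 11.01 in the other healthy cows, and DKK3 was 12.87 in the same cow against 13.25 to 13.31. LGR5 was 9.20 in SCE cow 718 against 7.24 to 7.41, and SFRP2 was 10.55 in that cow against 11.08 to 11.15. LRP6 was 8.34 in SCE cow 836 against 7.98 to 8.01. TCF7L2 was 11.10 in SCE cow 833 against 9.06 to 9.32. In WBC, TCF7L2 was 9.64 in healthy cow 850 against 9.04 to 9.08 and FZD7 was 6.94 in the same cow against 6.60 to 6.65, while FZD7 was 6.69 in SCE cow 833 against 6.82 to 6.84. No cause of these gaps was tested.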

How the results depend on the processing

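For endometrium against WBC, the 24 higher genes became between 22 and 31 under the alternatives, and 23 with the cow as a replicate block. Without single cows they ranged from 23 to 25. The count of lower genes rose from 0 to 1 with the brightest probe or the filter on dim probes (FRZB), with a TREAT threshold of 0 and with the replicate block (AXIN1), and ranged from 0 to 1 without single cows (AXIN1 without cow 833 or 836). With each tissue normalized separately FOXA2 and FRZB turned to 0.66 and 0.62 higher in the endometrium. For SCE against healthy in endometrium, the 2 genes past unadjusted TREAT became 1 with the signal scaled to the 75th percentile, normexp, the brightest probe or the slide row as a block, in each case by the loss of NDP, and 3 with all 16 arrays in 1 fit, which added SFRP1. Without single cows the count ranged from 1 to 7, with 7 without SCE cow 846 and 1 without 833, 836, 850 or 877. Without 841 or 883 it stayed 2, with SFRP1 or SFRP2 in place of NDP. The unadjusted count over all genes, 101, ranged from 74 to 504 (TREAT threshold of 0) and was 426 without cow 846 and 232 without healthy cow 883. In WBC the count of 0 became 1 with a TREAT threshold of 0, and that over all genes, 24, ranged from 17 to 409 and was 275 without cow 833. For the SCE effect in endometrium minus that in WBC, the 3 genes became 1 with the 75th percentile or the brightest probe and stayed 3 with the replicate block, and ranged from 1 (without cow 836) to 7 (without cow 846) when single cows were left out. Over all genes 465 passed unadjusted, with a range of 101 (TREAT at 1.2-fold) to 1279 (without cow 833) and 1038 without cow 846. No gene of the 35 passed after adjustment in these SCE comparisons under any alternative run, and beyond AXIN1 the replicate block changed the call of FZD3 alone among the 35 genes, which it lost. The cause of these changes was not tested, and signal over background limits the genes that were dim in WBC.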
